A study of Mus musculus with 8 samples.

Results

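The genes examined here encode the mouse DNA topoisomerases and the enzymes that remove them when they become stuck on DNA. The group has 8 members, taken by gene name from the 56030 rows of the deposited table: Top1, Top1mt, Top2a, Top2b, Top3a, Top3b, Tdp1 and Tdp2. Each name matched 1 row, and all members passed the filter on low counts. Libraries were made from ileal crypt cells of C57BL/6 mice given CPT-11 at 20 mg per kg over 7 days, and of C57BL/6 mice given vehicle, with 4 libraries in each group. Crypts were loosened with EDTA and shaking, strained and trypsinised, with no sorting step described. Neither sex, age and route of dosing nor whether every library had its own mouse could be read from the labels. The p-values therefore measure library-to-library spread, part of which may be technical.

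Topoisomerases relieve the twisting and tangling of DNA that replication, transcription and chromosome segregation produce. They cut DNA through a tyrosine that stays joined to the broken end, let strands rotate or pass, and then reseal the break. CPT-11 (irinotecan) is a prodrug whose active metabolite holds topoisomerase I in this joined state, so that the enzyme becomes a protein adduct on DNA. Intestinal crypts hold the dividing cells of the gut lining, in which such adducts meet replication forks. Tyrosyl-DNA phosphodiesterases cut the bond between the trapped tyrosine and DNA.

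Total counts were 20790164 to 23479121 per library. All markers of epithelium (8 genes) and of crypts (8 genes) were detected. The epithelial markers summed to 11537 to 15620 CPM in CPT-11 libraries and 10633 to 12252 CPM in vehicle libraries (CPM is a gene's count scaled to a common library size, with TMM as the correction for RNA composition). CPT-11 replicate 2 stood apart. Its median deviation from the mean of all libraries was -0.38 on the log2 scale for 3776 genes longer than 4000 bases and 0.74 for 1375 genes shorter than 1000 bases. In the other 7 libraries these medians ran from -0.20 to 0.19 and from -0.30 to 0.20. CPT-11 replicate 2 was the lowest of the 8 libraries for 4 of the 8 members, Top1, Top2a, Top2b and Top3b, and for 32.5% of the 14011 genes tested. Within the CPT-11 group alone it was lowest for 39.0% of genes. The part of this library composition in the members' values was not tested beyond the fits without that library or without the length trend, which are given where they bear on a result.

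Top2a was 2.54-fold lower in CPT-11 crypts than in vehicle crypts, and of the 8 members it alone passed the test. Across all 14011 genes 5.50% passed, with 2.52% lower and 2.98% higher (edgeR quasi-likelihood test at a threshold of 0.05 on the p adjusted by Benjamini and Hochberg over all genes). A count of 1 in 8 describes Top2a and says nothing of the group as a whole. The median log2 fold change of the 8 members was -0.18, against 0.01 over all genes tested, and 6 of the 8 values were negative. Neither Top1, the enzyme that the drug traps, nor the repair enzymes Tdp1 and Tdp2 passed.

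The promoters of the nuclear type II enzymes Top2a and Top2b are shown because Top2a passed the test and its close relative Top2b did not. Each is the stretch of 250 bases before the RefSeq transcription start on build GRCm38.p6, written 5′ to 3′ on the gene's strand. The Top2a stretch lies at chr11:99024190-99024439 on the minus strand and the Top2b stretch at chr14:16364956-16365205 on the plus strand. Capitals mark the letters CCAAT and TTTGAA on either strand (ATTGG and TTCAAA when read in reverse). CCAAT is the core of the CCAAT box, bound by the factor NF-Y, and TTTGAA is a form of the cell cycle genes homology region (CHR).
Top2a: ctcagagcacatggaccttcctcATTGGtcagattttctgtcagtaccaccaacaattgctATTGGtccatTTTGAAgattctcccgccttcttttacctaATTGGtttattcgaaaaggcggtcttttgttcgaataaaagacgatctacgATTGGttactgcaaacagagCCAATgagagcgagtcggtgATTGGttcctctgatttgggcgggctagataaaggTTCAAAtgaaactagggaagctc
Top2b: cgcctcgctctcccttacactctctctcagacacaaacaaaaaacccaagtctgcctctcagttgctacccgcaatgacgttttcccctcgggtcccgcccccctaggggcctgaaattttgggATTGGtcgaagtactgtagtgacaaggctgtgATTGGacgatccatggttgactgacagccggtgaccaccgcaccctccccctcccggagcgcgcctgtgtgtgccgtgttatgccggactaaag

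The Top2a stretch held 6 CCAAT matches and 2 TTTGAA matches, which do not overlap each other, while the Top2b stretch held 2 CCAAT matches and 0 TTTGAA matches. Of 32851 RefSeq promoters cut to the same length, 33.8% held CCAAT at least once, 0.213% held it 5 or more times, 16% held TTTGAA and 5.55% held both. Sequences were found for 5 of the 8 members, and among these only Top2a held both motifs. Of 16 promoters matched from a list of 18 genes of G2 and mitosis, 14 held CCAAT and 6 held both. Of 10 matched from a list of 12 S phase genes, 8 held CCAAT and 1 held both. These are letter matches and not measured binding.

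Top2a encodes topoisomerase II alpha, which untangles sister chromosomes and is made mainly in dividing cells from S phase to mitosis. The gene lies at chromosome 11, 98992943 to 99024189, on the minus strand (GENCODE M21, GRCm38). It stood at 105, 49.8, 98.9 and 87.3 CPM in CPT-11 replicates 1 to 4, against 258, 182, 211 and 217 CPM in vehicle replicates 1 to 4. Every CPT-11 library was below every vehicle library, and CPT-11 replicate 2 was the lowest of all. Groups were separated in this direction for 10.1% of all genes tested. The means were 85.3 ± 24.8 CPM with CPT-11 and 217 ± 31.2 CPM with vehicle (SD, n = 4 each). The log2 fold change was -1.35 ± 0.23 (SE), with a 95% interval from -1.85 to -0.84 (edgeR, adjusted p = 0.0107). Without CPT-11 replicate 2 it was -1.15, and with the length trend removed it was -1.20. It passed in all 21 alternatives, with adjusted p from 1.22e-06 to 0.044. In bulk preparations such as these, fewer dividing cells and less Top2a RNA per cell cannot be told apart.

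Top2b encodes topoisomerase II beta, which is also made in cells that no longer divide and acts at transcribed genes. It lies at chromosome 14, 16365179 to 16435462, on the plus strand. It stood at 68.3, 27.3, 68.3 and 58.3 CPM in CPT-11 replicates 1 to 4, against 64.5, 57.9, 50.2 and 65.7 CPM in vehicle replicates 1 to 4. CPT-11 replicate 2 lay below all other libraries, while replicates 1 and 3 lay just above the vehicle range and replicate 4 within it. On the log2 scale its fold change was -0.10, with an interval from -0.67 to 0.47, and it did not pass in edgeR. It was 0.13 without CPT-11 replicate 2 and 0.17 with the length trend removed, so its direction turned. Rarb overlaps Top2b on the opposite strand over 1793 exon bases, and it had at most 7.88 counts in any library.

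**Figure D1:**
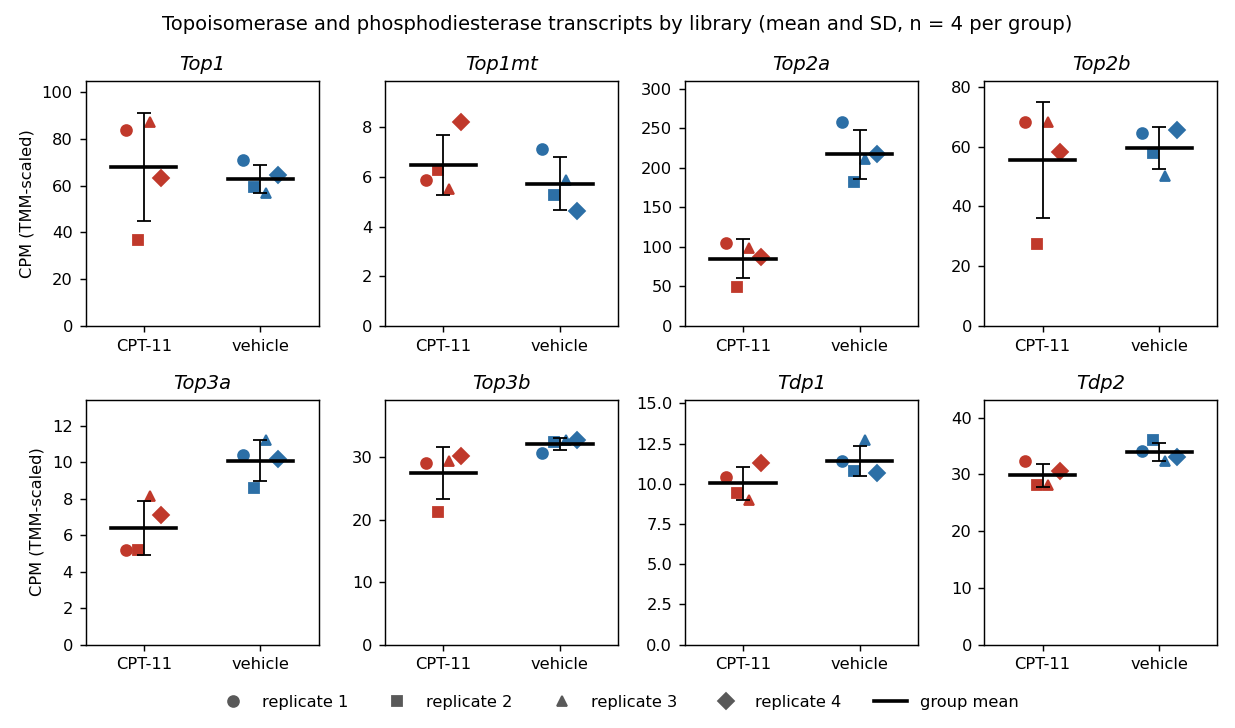
Each panel plots 1 gene in CPM (TMM-scaled) for the CPT-11 libraries at left and the vehicle libraries at right, with symbols for replicates and bars for the mean and SD (n = 4 each). Top2a is the gene whose groups stand widest apart, at 49.8 to 105 CPM with CPT-11 and 182 to 258 CPM with vehicle, and the square symbol of CPT-11 replicate 2 lies lowest for Top1, Top2a, Top2b and Top3b.

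The ratio of Top2a to Top2b counts within a library does not depend on how libraries are scaled. It was 1.54, 1.82, 1.45 and 1.5 in CPT-11 replicates 1 to 4, against 4.00, 3.14, 4.21 and 3.30 in vehicle replicates 1 to 4. All CPT-11 ratios were below all vehicle ratios, and CPT-11 replicate 2 had the highest ratio of its group. The difference was -1.21 on the log2 scale, with a two-sided exact permutation p of 0.0286, the smallest that 4 against 4 libraries can give. Adjusted over the 4 pairs of related genes compared, it was 0.114 by the Benjamini-Hochberg method in this exact test. The difference did not pass after that adjustment, but no pair could pass it unless other pairs also reached that smallest p. The adjusted value therefore does not measure how large the difference is. These are ratios of counts and not of levels per length.

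Markers of dividing cells moved beside Top2a. Of 18 genes of G2 and mitosis, 9 fell and 0 rose, beside 2.52% of all genes tested called lower and 2.98% called higher. The median log2 fold change of the list was -0.75, against 0.01 over all genes tested. The number that fell was 5 without vehicle replicate 1 or 3, and 11 without CPT-11 replicate 2. It was 13 with the length trend removed and 14 with that removal plus the replicate block. All 18 genes had a negative fold change. Their summed level was 584 to 752 CPM in CPT-11 libraries and 901 to 1174 CPM in vehicle libraries, and no gene of the list was at 0 in every library. The log2 fold change of Top2a was the lowest among these 19 genes, followed by Mki67 at -1.18, Nusap1 at -1.14 and Aurkb at -1.1. Mki67 encodes the proliferation antigen Ki-67, Nusap1 a spindle protein and Aurkb the chromosomal passenger kinase Aurora B. At the other end, the cyclin B genes Ccnb1 and Ccnb2 had log2 fold changes of -0.30 and -0.20 and did not pass (edgeR, adjusted p = 0.225 and 0.384).

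In each CPT-11 library Top2a lay further below its vehicle mean than the median gene of the mitotic list did. On the log2 scale with a pseudocount of 0.5 CPM, Top2a was at -1.03, -2.10, -1.12 and -1.30 in CPT-11 replicates 1 to 4. The median mitotic gene was at -0.35, -0.97, -0.88 and -0.78 in the same libraries. Single genes of the list lay below Top2a in CPT-11 replicates 3 and 4, where the lowest were at -1.34 and -1.47. Of 12 genes of S phase, 0 passed in either direction by edgeR, although 1 was lower at an unadjusted p below 0.05 and all 12 fold changes were negative. The summed level of the S phase genes was 534 to 921 CPM with CPT-11 and 775 to 950 CPM with vehicle, so the groups overlapped. How far the share of dividing cells sets the Top2a value was not tested.

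**Figure D2:**
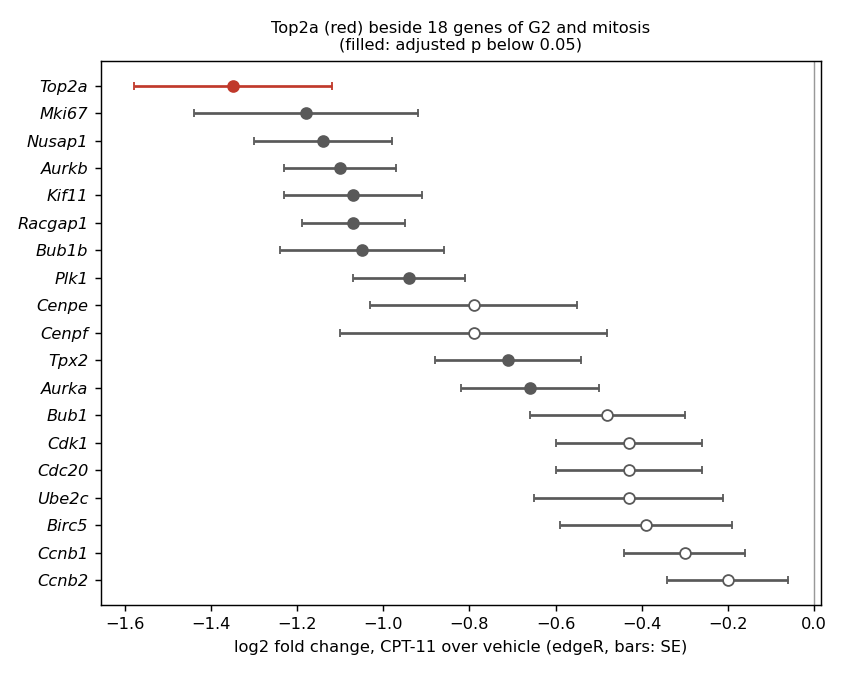
The log2 fold change, CPT-11 over vehicle, of Top2a and of 18 genes of G2 and mitosis is plotted with its SE, and filled points passed the edgeR test. Top2a lies lowest at -1.35, and the values of the other genes run from -1.18 for Mki67 to -0.20 for Ccnb2.

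Some crypt markers fell beside Top2a as well. Of 8 crypt markers 4 were called lower and 0 higher, against 2.52% of all genes tested that were called lower. Fold changes were negative for 6 of the 8, with a median of -0.82 on the log2 scale. Mki67, which passed, is also in the list of G2 and mitosis, so the 2 lists are not separate. Their sum was 18949 to 34877 CPM in CPT-11 libraries and 31078 to 41536 CPM in vehicle libraries, so the groups overlapped, and no marker was at 0 in every library. Some markers of other cells were called higher, beside 2.98% of all genes tested, and their sums overlapped between the groups. Median log2 fold changes were 0.49 for enterocyte and 0.51 for leukocyte markers, against 0.01 over all genes tested. Of 10 enterocyte markers 1 rose and 0 fell, and their sum was 18673 to 59666 CPM in CPT-11 libraries and 11988 to 20003 CPM in vehicle libraries. Of 12 leukocyte markers 3 rose and 0 fell, and their sum was 394 to 976 CPM with CPT-11 and 134 to 479 CPM with vehicle. No marker of either list was at 0 in every library. Of 10 stromal markers 7 were tested and 0 passed in the main edgeR fit or DESeq2, with 3 higher at an unadjusted p below 0.05. The median log2 fold change was 0.90, and 0 of the 7 values were negative. With the length trend removed plus the replicate block 1 was called higher, and with quality weights 1. The stromal markers summed to 46.5 to 142 CPM with CPT-11 and 21.4 to 63.8 CPM with vehicle, and no stromal marker was at 0 in every library. With vehicle replicate 1 left out, 0 enterocyte or leukocyte markers rose, and the same held without vehicle replicate 4 and without CPT-11 replicate 1. Over all genes tested, 132, 236 and 219 were called higher in those fits, in place of 417. Without vehicle replicate 2 the counts were 0 for enterocytes and 1 for leukocytes. Without vehicle replicate 3 the enterocyte count was 0, and without CPT-11 replicate 4 the leukocyte count was 0. With the replicate block, 2 enterocyte and 0 leukocyte markers were called higher, and with the length trend removed as well the counts were 3 and 3. Quality weights called 2 enterocyte and 4 leukocyte markers higher and 1 leukocyte marker lower. DESeq2 called 2 enterocyte and 3 leukocyte markers higher and 1 leukocyte marker lower. The part of these cells in the members' values was not tested.

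Top1 encodes the nuclear type I topoisomerase that nicks a single strand, and it is the target of the drug. It lies at chromosome 2, 160645888 to 160722764, on the plus strand. It stood at 84.0, 36.9, 87.3 and 63.5 CPM in CPT-11 replicates 1 to 4, against 70.8, 59.5, 56.7 and 64.5 CPM in vehicle replicates 1 to 4. Replicates 1 and 3 with CPT-11 were above every vehicle library, replicate 4 lay within the vehicle range and replicate 2 lay below it. The coefficient of variation was 34.2% with CPT-11 and 9.83% with vehicle. The 95% interval of the log2 fold change ran from -0.42 to 0.64 (edgeR, adjusted p = 0.79). After the trend on gene length was taken off, CPT-11 replicate 2 was at 43.9 CPM and the other CPT-11 libraries at 66.9 to 81.7 CPM, against 55.9 to 68.5 CPM with vehicle. The log2 fold change was 0.33 without CPT-11 replicate 2, and it turned to -0.0058 and -0.037 without CPT-11 replicates 1 and 3. Without replicates 2 and 4 together it passed at 0.45 (edgeR, adjusted p = 0.0359, in a range of 0.0359 to 0.99 over 21 alternatives). That fit drops the CPT-11 libraries with the lowest Top1 values and keeps only those above every vehicle library. It is therefore no separate support for a rise.

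Top1mt encodes the type I topoisomerase of mitochondria (chromosome 15, 75657035 to 75678800, minus strand), which relaxes the mitochondrial genome. It stood at 5.86, 6.29, 5.52 and 8.21 CPM in CPT-11 replicates 1 to 4, against 7.11, 5.26, 5.89 and 4.61 CPM in vehicle replicates 1 to 4. The groups overlapped and no library stood apart. Its log2 fold change was 0.18, with an interval from -0.27 to 0.62 (edgeR, adjusted p = 0.597). The log2 ratio of Top1 to Top1mt counts averaged 3.33 ± 0.69 with CPT-11 and 3.47 ± 0.24 with vehicle (SD, n = 4 each, two-sided exact permutation p = 0.714, adjusted 0.857). That ratio was lowest in CPT-11 replicates 2 and 4, at 2.55 and 2.95, and highest in CPT-11 replicates 3 and 1, at 3.98 and 3.84. Mitochondrial transcripts summed to 74583 to 99629 CPM in CPT-11 libraries and 60059 to 79549 CPM in vehicle libraries. Of the 9 genes 0 passed (edgeR), with 3 higher at an unadjusted p below 0.05 and 0 called by DESeq2. Their median log2 fold change was 0.62, against 0.01 over all genes tested, and 0 of the 9 values were negative. The median was 0.32 without CPT-11 replicate 2. Without CPT-11 replicate 3, edgeR called 1 of the 9 higher, and quality weights also called 1.

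Top3a encodes a type IA topoisomerase that, with the Bloom helicase, takes apart joined DNA molecules left by recombination and replication. It lies at chromosome 11, 60740058 to 60777365, on the minus strand. It stood at 5.18, 5.18, 8.16 and 7.12 CPM in CPT-11 replicates 1 to 4, against 10.4, 8.58, 11.2 and 10.2 CPM in vehicle replicates 1 to 4. The CPT-11 values lay below all vehicle values, although CPT-11 replicate 3 and vehicle replicate 2 were close. The mean was 6.41 ± 1.48 CPM with CPT-11 and 10.1 ± 1.1 CPM with vehicle (SD, n = 4 each). The log2 fold change of -0.65 ± 0.19 (SE), with an interval from -1.08 to -0.23, had an unadjusted p of 0.00659 and did not pass over all genes (edgeR, adjusted p = 0.0768). It passed without CPT-11 replicate 3 at -0.80 (edgeR, adjusted p = 0.0342) and by DESeq2 (adjusted p = 0.0201), in a range of 0.0043 to 0.21 over 21 alternatives.

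Top3b encodes the other type IA enzyme, which also acts on RNA (chromosome 16, 16870736 to 16892990, plus strand). It stood at 29.1, 21.3, 29.4 and 30.2 CPM in CPT-11 replicates 1 to 4, against 30.7, 32.4, 32.7 and 32.7 CPM in vehicle replicates 1 to 4. The groups did not overlap, but 3 of the 4 CPT-11 libraries lay within 2 CPM of the lowest vehicle library and replicate 2 lay well below. Its log2 fold change was -0.22, with an interval from -0.52 to 0.08 (edgeR, adjusted p = 0.327), and it was -0.11 without CPT-11 replicate 2. Vpreb1 overlaps Top3b on the opposite strand over 108 exon bases and had at most 9 counts in any library. The log2 ratio of Top3a to Top3b counts averaged -2.11 ± 0.27 with CPT-11 and -1.68 ± 0.17 with vehicle, and the groups overlapped (SD, n = 4 each, two-sided exact permutation p = 0.0571, adjusted 0.114). Of the 8 members, 3 had groups that did not overlap, all of them lower with CPT-11, beside 18.5% of all genes tested with no overlap in either direction and 8.41% with every CPT-11 value higher.

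Tdp1 and Tdp2 encode phosphodiesterases that free DNA ends from trapped topoisomerases. Tdp1 acts mainly on the 3′ ends that topoisomerase I holds, and Tdp2 on the 5′ ends that topoisomerase II holds. Tdp1 (chromosome 12, 99884517 to 99955219, plus strand) stood at 10.4, 9.44, 8.96 and 11.3 CPM in CPT-11 replicates 1 to 4, against 11.4, 10.8, 12.7 and 10.7 CPM in vehicle replicates 1 to 4. Tdp2 (chromosome 13, 24831679 to 24842153, plus strand) stood at 32.4, 28.2, 28.2 and 30.6 CPM in CPT-11 replicates 1 to 4, against 34.1, 36.0, 32.3 and 33.1 CPM in vehicle replicates 1 to 4. For each gene the CPT-11 values lay mostly below the vehicle values, and the groups overlapped slightly.

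The log2 fold changes were -0.19 (interval -0.50 to 0.12) for Tdp1 and -0.18 (interval -0.43 to 0.06) for Tdp2, and neither passed (edgeR, adjusted p = 0.416 and 0.325). These intervals reach down to falls of 0.50 and 0.43 on the log2 scale. With the length trend removed both log2 fold changes were -0.28 and neither passed (edgeR, adjusted p = 0.195 for Tdp1 and 0.116 for Tdp2). Tdp2 then stood at 25.8 to 31.7 CPM with CPT-11 and 32.8 to 37.1 CPM with vehicle, while the groups of Tdp1 still overlapped. How many of all genes separate on that scale was not counted. The ratio of Tdp1 to Tdp2 counts was 0.318 to 0.369 in CPT-11 libraries and 0.301 to 0.393 in vehicle libraries. The difference of the log2 ratio was -0.01 (two-sided exact permutation p = 0.857, adjusted 0.857). Tdp1 and Tdp2 also varied little within the CPT-11 group, with coefficients of variation of 10.2% and 6.86%, and their values in CPT-11 replicate 2 were 92.6% and 92.8% of the mean of the other CPT-11 libraries. For Top1 and Top2b the same share was 47.1% and 42.0%. The deposited lengths of Tdp1 and Tdp2 are 2019 and 1957 bases, and those of Top1 and Top2b are 3856 and 10335 bases. Top3a, with 3741 bases, is close to Top1 in length, and its share was 76%. For Top2a, Top3b and Top1mt, with 5221, 3073 and 1903 bases, the shares were 51.2%, 72.2% and 96.3%.

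**Figure D3:**
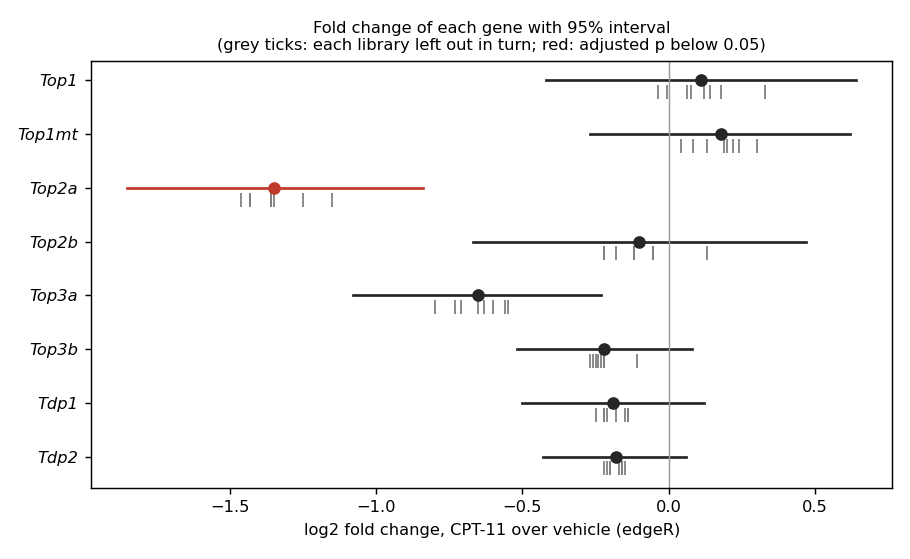
Points give the log2 fold change, CPT-11 over vehicle, of each member with its 95% interval from the edgeR fit, and grey ticks give the value with each library left out in turn. The interval of Top2a runs from -1.85 to -0.84 and that of Top3a from -1.08 to -0.23, while the intervals of the other 6 genes include 0.

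**Figure D4:**
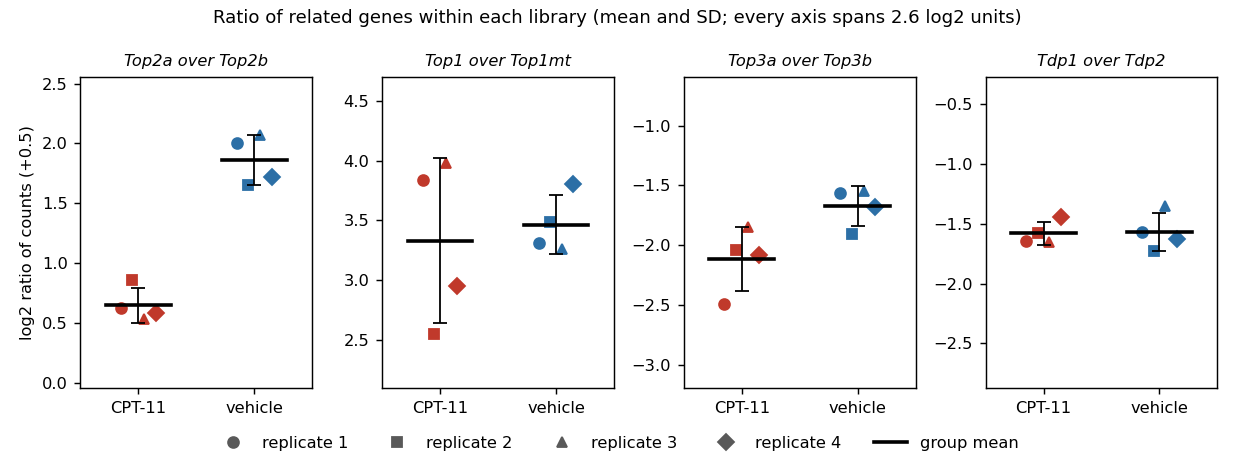
The log2 ratio of counts of 2 related genes (with 0.5 added) is plotted for each library, CPT-11 at left and vehicle at right, with the mean and SD (n = 4 each) on axes of equal span. The ratio of Top2a to Top2b separates the groups, at 0.53 to 0.86 with CPT-11 and 1.65 to 2.07 with vehicle, and the other ratios overlap.

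Levels can be compared between genes only per length, here as CPM per kilobase of merged exons. With CPT-11, Top2a averaged 9.47 CPM per kilobase and Tdp2 9.08, followed by Top1 at 6.52, Top2b at 3.80, Top3b at 3.27, Top1mt at 3.17, Top3a at 1.39 and Tdp1 at 1.25. In vehicle crypts, Top2a averaged 24.1 CPM per kilobase, ahead of Tdp2 at 10.3, Top1 at 6.03, Top2b at 4.08, Top3b at 3.82, Top1mt at 2.80, Top3a at 2.19 and Tdp1 at 1.43. With CPT-11 every pair of neighbours in this order overlapped across libraries except Tdp2 and Top1, and Top1mt and Top3a, as levels per kilobase. In vehicle libraries the levels per kilobase of Top2b and Top3b, and of Top1mt and Top3a, overlapped, and the other neighbours did not. The order depends on the length used. With the longest transcript as the length, the CPT-11 levels per kilobase were 17.6 for Top1, 16.3 for Top2a and 15.2 for Tdp2. The vehicle levels were then 16.3 for Top1, 41.6 for Top2a and 17.3 for Tdp2. Top3b moved to 7.83 with CPT-11 and 9.15 with vehicle, ahead of Top2b at 5.38 and 5.77. Tdp1 moved to 2.54 with CPT-11 and 2.89 with vehicle, ahead of Top3a at 1.71 and 2.70. With the length in the deposited table, Tdp1 stood at 4.96 CPM per kilobase with CPT-11 and 5.64 with vehicle, and Top3b at 8.95 and 10.5. Top2a had the highest vehicle level with each of these lengths.

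The genes whose pattern over the 8 libraries was most like that of Top2a were Spag5, Cdca2 and Anln. Likeness was the root mean square difference of log2 CPM after each gene's own mean was taken off, over 11943 other genes. It was 0.118, 0.124 and 0.147 for these genes, where the pattern of Top2a itself has a root mean square of 0.766. Spag5 stood at 18.1, 7.40, 14.7 and 12.7 CPM in CPT-11 libraries, against 34.7, 28.1, 35.4 and 29.6 CPM in vehicle libraries. The genes named as most like Top1 were Hif1a and Zfp800, at 0.0698 and 0.0753, beside a root mean square of 0.359 for Top1. Hif1a stood at 35.6, 14.4, 34.9 and 24 CPM in CPT-11 libraries, against 30.9, 23.1, 21.4 and 24.8 CPM in vehicle libraries. As with Top1, its lowest value was in CPT-11 replicate 2. Promoters were found for 2 of the 3 genes likest to Top2a, of which 1 held CCAAT and 0 held TTTGAA.

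None of the genes of the surrounding repair routes passed. Of 43 listed genes in 6 lists, 42 were found in the table and 40 were tested, and 0 rose and 0 fell by edgeR. At an unadjusted p below 0.05, 2 were higher and 3 lower, where 1873 of all 14011 genes were higher and 1569 lower, and DESeq2 called 1 of the 40 lower, the nuclease gene Eme1. The median log2 fold change of the 40 genes was -0.09, against 0.01 over all genes tested. Gcna was not analysed here. The meiotic type II relatives Spo11 and Gm960 had at most 3 counts in a library and were not tested.

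Among 5 partners of the type IA topoisomerases, the median log2 fold change was -0.22. Blm, the Bloom helicase that works with Top3a, stood at 5.36, 3.52, 5.44 and 5.04 CPM in CPT-11 replicates 1 to 4, against 8.76, 6.06, 5.85 and 9.13 CPM in vehicle replicates 1 to 4. The groups did not overlap, and 10.1% of all genes tested were lower without overlap. The log2 fold change of Blm was -0.62 and did not pass (edgeR, adjusted p = 0.128). Rmi2, a subunit of the same complex, was at -0.39 and Tdrd3, the scaffold that binds Top3b, at -0.22. Fmr1, which encodes the RNA-binding partner FMRP, was at 0.03, with Rmi1 at 0.02 on the same log2 fold change scale.

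Among 8 genes that mend the single-strand breaks left after adduct removal, the median was -0.21 and values went both ways. Aptx, which clears failed ligation intermediates, stood at 7.45, 13.3, 6.74 and 8.80 CPM in CPT-11 replicates 1 to 4, against 5.41, 5.45, 6.30 and 6.14 CPM in vehicle replicates 1 to 4. Every CPT-11 value was above every vehicle value, and replicate 2 was highest (log2 fold change 0.63, edgeR, adjusted p = 0.122). Xrcc1, the scaffold of this route, stood at 23.2, 13.0, 19.4 and 25.2 CPM with CPT-11, against 26.0, 28.9, 35.4 and 28.2 CPM with vehicle. Its groups did not overlap either (log2 fold change -0.55, edgeR, adjusted p = 0.139). Over all genes tested, 8.41% were higher and 10.1% lower without overlap. Polb, the gap-filling DNA polymerase beta, had a log2 fold change of 0.42 and Parp1, the break sensor, one of -0.47 (edgeR, adjusted p = 0.153 and 0.22). Every CPT-11 value of Parp1 was below every vehicle value, while the groups of Polb overlapped. Polb passed without CPT-11 replicate 3 (edgeR, adjusted p = 0.0428, in a range of 0.0381 to 0.396 over 21 alternatives).

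Among 10 tested genes that tag or digest the trapped protein, the median log2 fold change was -0.04. Sprtn, the protease that degrades DNA-bound proteins, averaged 13.7 ± 4.55 CPM with CPT-11 and 18.1 ± 0.275 CPM with vehicle (SD, n = 4 each, log2 fold change -0.40, edgeR adjusted p = 0.323). Its value in CPT-11 replicate 2 was 7.09 CPM. The groups of Sprtn did not overlap, and 10.1% of all genes tested were lower without overlap. Pias1, a SUMO ligase, was at -0.27, Rnf4, a ubiquitin ligase that reads SUMO, at -0.27, and Tex264, an adaptor for adduct digestion, at 0.28, and none of these log2 fold changes passed. The values of Tex264 and Rnf4 took both signs under some of the 21 alternatives.

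Among 11 genes of nuclease excision, an alternative way to cut off the adduct, the median was -0.08. Eme1, the partner of the nuclease Mus81, stood at 6.27, 5.74, 5.02 and 6.03 CPM in CPT-11 replicates 1 to 4, against 8.98, 7.58, 9.98 and 7.89 CPM in vehicle replicates 1 to 4. All CPT-11 values were below all vehicle values, as for 10.1% of all genes tested. The log2 fold change of -0.58 did not pass (edgeR, adjusted p = 0.0642, in a range of 0.0122 to 0.194 over 21 alternatives). Mre11a and Rad50, of the end-resecting nuclease complex, were at -0.43 and -0.31, and the nuclease scaffold gene Slx4 was at -0.25. Among 6 genes of end joining, which reseals double-strand breaks, the median was 0.08. Prkdc, the DNA-dependent protein kinase, had a log2 fold change of -0.58, Nhej1 of 0.69, Xrcc4 of 0.33 and Xrcc5 of 0.27, and none passed (edgeR, adjusted p from 0.297 to 0.347). The value of Prkdc ran from -0.82 to -0.10 over the 21 alternatives, and that of Nhej1 from -0.22 to 0.92. Nhej1 stood at 8.82 CPM in CPT-11 replicate 2, 2.18 to 4.50 CPM in the other CPT-11 libraries and 1.87 to 3.38 CPM in vehicle libraries.

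**Figure D5:**
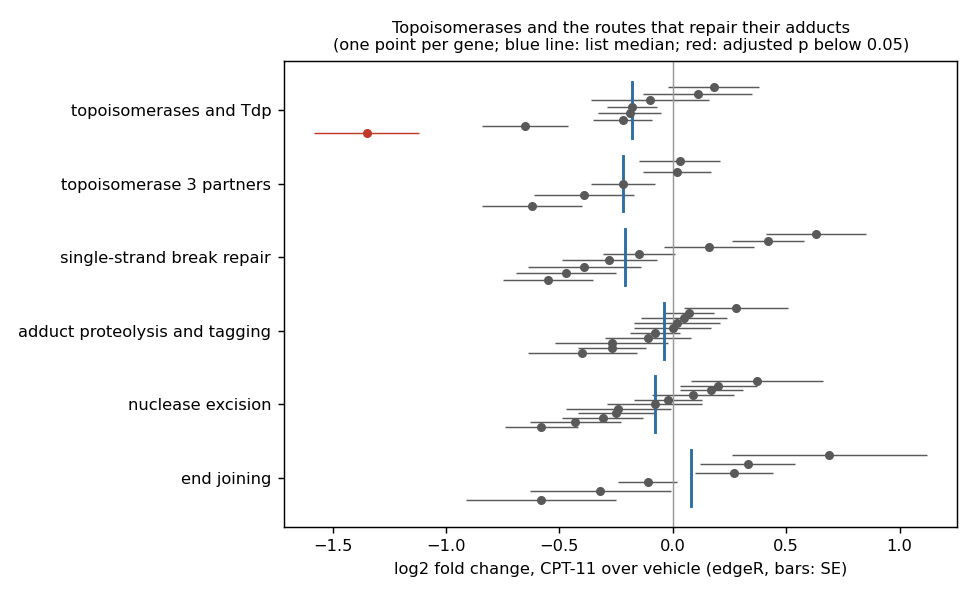
Each point is the log2 fold change, CPT-11 over vehicle, of 1 gene with its SE, grouped by repair route, with the list median as a blue line. Only Top2a passed the edgeR test, at -1.35, and the list medians run from -0.22 for the topoisomerase 3 partners to 0.08 for end joining.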

How the data were processed

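The table holds estimated counts per gene for 8 libraries, deposited by the authors without normalization, together with the authors' group means, which were not used, and a gene length in bases, used for the length trend and a length alternative. Per the submitters' processing notes, Bowtie2 2.4.1 and build GRCm38.p6 were used. For the counting tool and for its use of strand the labels give nothing. The 543 rows without a gene name, between 0.325% and 0.662% of each library's count, were left out. Estimated counts were rounded and tested across all named genes with edgeR 4.0.16 (R 4.3.3), with TMM scaling, the default filter (counts of about 10 and 15), robust quasi-likelihood F tests, and Benjamini-Hochberg adjustment over 14011 genes. Members had 84 to 5917 counts per library. Pair ratios used log2 counts with a pseudocount of 0.5 and exact permutation of the 8 libraries (scipy 1.17.1). The edgeR script was tested on simulated data. Coordinates, gene types and merged exon lengths came from GENCODE M21 (GRCm38), which has 55227 of the 55487 named rows by identifier, and promoters from RefSeq. Named repair genes are the 4 with the smallest p in each list, and Rmi1, Spo11, Gm960 and the mitotic genes were named after their values were seen. Likeness was named for Top1 and Top2a over genes with mean log2 CPM above 1, as the 3 closest genes each, of which 1 for Top1 is not reported here. Members and gene lists were chosen with earlier results of these data known. Alternatives were RLE and upper-quartile scaling, other filters, DESeq2 1.42.0, limma-voom (limma 3.58.1), a replicate block, a fit with the gene length trend of every library taken off, protein-coding genes only, unnamed rows, and libraries left out.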

Additional observations from a re-analysis of the deposited data

Results flagged for a closer look

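In CPT-11 replicate 2, Top3b stood at 21.3 CPM, against 29.1 to 30.2 CPM in the other CPT-11 libraries, and its gap to the nearest of them was 0.881 of the group's range, past Dixon's critical value. In the same library Parp1 stood at 29.6 CPM, against 57.4 to 62.6 CPM in the other CPT-11 libraries, a gap of 0.843 of the range. These were the 2 that stood out among 64 sets of 4 libraries examined for the members, the named repair genes and the ratios, and chance alone marks about 1 set in 20.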

How the results depend on the processing

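Top2a kept its direction and passed in all 21 alternatives, between -1.46 and -1.08 on the log2 scale, and between -1.46 and -1.15 with single libraries left out. Top3b, Tdp1 and Tdp2 stayed negative and did not pass in any of them. Without CPT-11 replicates 2 and 4 together, Top1 passed at 0.45, so that 1 member was called higher, Top1mt was at -0.0023 and Top2b at 0.20. Those replicates hold the lowest Top1 values of the CPT-11 group, so that call follows from leaving them out. With single libraries left out, Top1 ran from -0.037 to 0.33 and turned negative at -0.0058 and -0.037 without CPT-11 replicates 1 and 3, while Top2b ran from -0.22 to 0.13. Top2b was also positive with quality weights (0.13), with the length trend removed (0.17) and with that removal plus the replicate block (0.14). Top3a passed by DESeq2 (-0.65) and with quality weights (-0.82), so that 2 members were called lower in each, and it ran from -0.80 to -0.55 with single libraries left out, where 1 to 2 members were called lower. Of the 40 repair genes, quality weights called 1 higher and 3 lower, DESeq2 called 1 lower, removal of the length trend called 1 lower, and with single libraries left out 0 to 1 were called higher. With the length trend removed, the log2 ratios of Top1 to Top1mt and of Tdp1 to Tdp2 turned to 0.051 and 0.0024. The ratio of Top1 to Top1mt was also positive without CPT-11 replicate 2 (0.12) and without CPT-11 replicates 2 and 4 together (0.44). With single libraries left out, the ratio of Tdp1 to Tdp2 ran from -0.06 to 0.069. Where not given by fewer samples, the cause was not tested. Over all genes, 417 were called higher and 353 lower, against 1045 and 839 by DESeq2, 1548 and 1624 with quality weights, 610 and 684 with the length trend removed, 646 and 579 with that removal plus the replicate block, and 637 and 575 without CPT-11 replicates 2 and 4. With single libraries left out, these counts ran from 132 to 769 higher and from 104 to 753 lower. Whether replicate numbers pair the libraries was not settled. Deviations of same-numbered libraries correlated at 0.31, 0.166, -0.158 and 0.121, and differently numbered libraries were not compared. With the replicate block, 397 genes were called higher and 289 lower, 0 of 12 leukocyte markers were called higher in place of 3, Top2a was at -1.39, and the Top2a to Top2b log2 ratio of -1.21 had an exact sign-flip p of 0.125, the smallest that 4 pairs allow. With single libraries left out that ratio ran from -1.28 to -1.14, with the smallest exact permutation p that 3 against 4 libraries allow, 0.0571. The use of the deposited length for levels per kilobase was chosen after seeing the data.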
